A study of Mus musculus with 15 samples.

Results

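The early step of muscle aging, from 5 to 17 months, was described here by comparing the gastrocnemius of 5 middle-aged and 5 young male mice across every probe that gave a signal in them. A probe was a member when its detection p-value was under 0.05 on at least 5 of these 10 arrays, which 11900 of the 25697 probes of the array met. They stand for 9010 of the 18312 features of the array, of which 8349 are named genes, each represented by its brightest probe, and 661 are single unnamed probes. The rule used the presence of signal and not its difference between the ages. Of the member probes, 10208 were detected on all 10 arrays, 7 on no young array and 2 on no middle-aged array, and any of these 9 that differ had to be higher in the group that let them in. The 286 probes just inside the rule, detected on exactly 5 arrays, had a median mean log2 intensity of 4.89, against 4.83 for the 306 probes just outside it.

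All mice were C57BL/6 males, for which the labels name no treatment, transgene or deletion, fed chow freely and housed in cages of 4. The young mice were 5 months old and the middle-aged mice 17 months, and a group of 5 old mice of 28 months entered the same linear model and lends its spread to the tests. RNA from 1 gastrocnemius sample per mouse was hybridised to 1 Illumina MouseRef-8 bead array, a slide of short probes on beads whose brightness follows the abundance of the matching transcript. The labels give each array its own replicate number and the study lists 5 mice per age, so each array was taken as 1 mouse. Litter, cage and slide are not given, so a batch of that kind could not be examined. Between 11534 and 12197 probes were detected on each of the 10 arrays. The fast fibre genes that define this muscle were all measured, 15 of the 15 on the array, with alpha-actinin 3 (Actn3) at log2 intensities of 15.04 to 15.45, while the satellite cell genes Pax7, Pax3 and Myf5 and the myoblast fusion gene Mymk were detected on no array. Middle-aged replicate 5 correlated least with its own group (mean r = 0.977 across features, against 0.985 to 0.988 for the other middle-aged arrays and 0.988 to 0.991 for the young arrays). Middle-aged replicates 2, 3 and 5 had a slightly higher mean r with the young arrays (0.9887, 0.9902 and 0.9803) than with their own group (0.9876, 0.9876 and 0.977).

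The gastrocnemius is a calf muscle built mostly of fast, glycolytic fibres, between which lie capillaries, nerve endings, connective tissue and a variable number of fat cells. Middle age in mice is a period of weight gain that precedes the loss of muscle mass and of motor nerve contacts seen late in life. A muscle sample therefore reports the transcripts of fibres together with those of whatever cells surround them, and in such a sample a change in the number of cells of a type and a change in the RNA of each cell cannot be told apart.

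A single gene passed the test between 5 and 17 months. Kcnab1, which encodes a beta subunit of the Shaker-type voltage-gated potassium channels, a cytoplasmic partner that speeds their inactivation and has the fold of an aldo-keto reductase, rose in the middle-aged muscle. It was 1 of 9010 features, or 0.0111%, called at an adjusted p under 0.05 by limma, and no feature was called lower. Without adjustment 451 features (5.01%) had a p under 0.05, 262 of them higher (2.91%) and 189 lower (2.1%), where 450.5 would stand under evenly spread p-values. The median difference over all features was 0.00 on the log2 scale, with a median SE of 0.159, and 49.1% of the estimates were above 0. The same model called 26 features (0.289%) between 17 and 28 months and 279 (3.1%) between 5 and 28 months, contrasts that share the middle-aged or the young arrays with the early step.

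**Figure D1:**
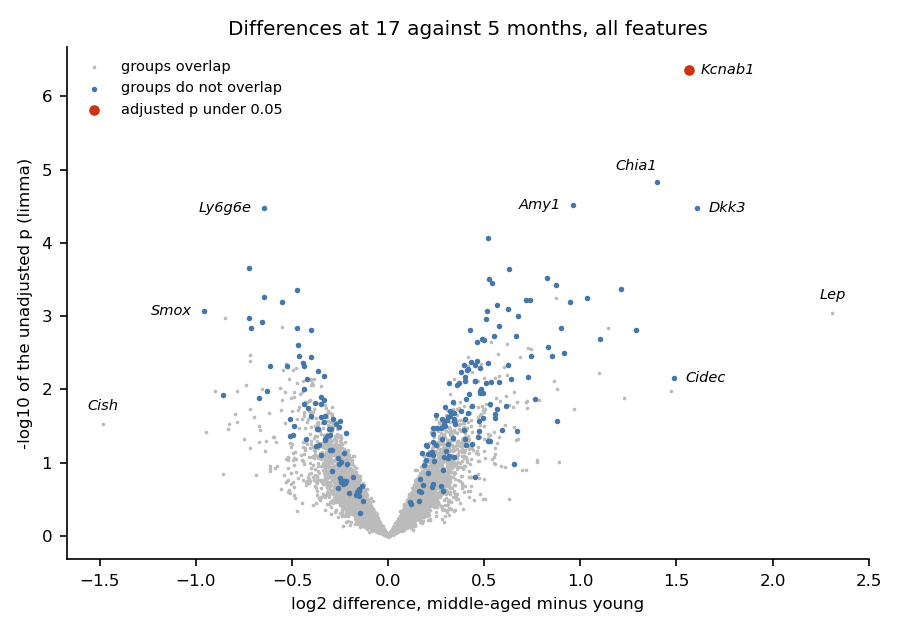
Each point is 1 of the 9010 features, with the log2 difference of middle-aged minus young on the horizontal axis and the negative log10 of the unadjusted limma p on the vertical axis. Kcnab1, the red point, stands alone past the adjusted threshold, and blue points are the 223 features whose young and middle-aged arrays do not overlap.

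The count differed with the arrays that entered the model. The root mean variance of the log2 values within a group was 0.222 in young, 0.273 in middle-aged and 0.382 in old muscle, and 1 model over the 15 arrays gives the early step the pooled spread. With the young and middle-aged arrays normalised and fitted alone, 19 features were called (0.211%), 14 higher and 5 lower. In that fit 864 of the 9010 features had an unadjusted p under 0.05. All 19 had groups that did not overlap, where 2.48% of all features did, but the same arrays gave the calls and the separation. The 14 were Kcnab1, Ankrd1, Chia1, Amy1, Dgat2, Mib1, Prkcz, Lonp2, Dkk3, Arhgap44, Mustn1, Rab11fip5, Pkp2 and an unnamed probe (ILMN_2950622), and the 5 were Gpt2, Jak2, Amd2, Itm2a and Smox. With weights estimated for each array the 15-array model called 85 features, 62 higher and 23 lower, which held all of those 19. With these weights 1516 features had an unadjusted p under 0.05. The 18 features beside Kcnab1 missed the threshold of the main model, so their values are given below as estimates.

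On young replicates 1 to 5 the normalised log2 intensity of Kcnab1 was 7.78, 7.59, 7.96, 7.05 and 6.91. On middle-aged replicates 1 to 5 it was 9.20, 9.19, 8.79, 9.12 and 8.80. Every middle-aged array lay above every young array, with a gap wider than the spread of the middle-aged group. The difference was 1.57 ± 0.20 (SE, n = 5 against 5) on the log2 scale, a fold of 2.96 with an adjusted p of 0.00398. A second probe for the gene gave 1.41 ± 0.21, with an adjusted p of 0.0141 over all 11900 probes, and its groups, 7.01 to 7.78 and 8.52 to 9.34, did not overlap either. The old arrays lay between 8.37 and 9.10 for the first probe, and old against young was 1.18 (adjusted p = 0.00351). The step from 17 to 28 months was -0.39 (adjusted p = 0.454), and the change of slope at 17 months, tested as the difference between both steps, was -1.95 (adjusted p = 0.0677). Kcnab2, another beta subunit of the family, was close to background at 4.78 to 5.06 in young and 4.60 to 4.88 in middle-aged muscle (-0.16 ± 0.12, adjusted p = 0.9997).

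Kcnab1 has 3 transcription starts in RefSeq, and its sequences are shown because it is the single gene that passed. The array file does not say which start the probes follow. Each window runs from 250 bases before to 50 after a start on the plus strand of mouse chromosome 3 in GRCm38.p6, and capitals mark the E-box CACGTG.
Start 1, chr3:64948962-64949261: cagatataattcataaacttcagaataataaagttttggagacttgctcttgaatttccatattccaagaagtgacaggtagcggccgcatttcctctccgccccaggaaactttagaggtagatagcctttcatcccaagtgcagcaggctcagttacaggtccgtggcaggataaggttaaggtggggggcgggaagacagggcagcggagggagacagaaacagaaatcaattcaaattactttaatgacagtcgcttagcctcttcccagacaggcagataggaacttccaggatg
Start 2, chr3:65108764-65109063: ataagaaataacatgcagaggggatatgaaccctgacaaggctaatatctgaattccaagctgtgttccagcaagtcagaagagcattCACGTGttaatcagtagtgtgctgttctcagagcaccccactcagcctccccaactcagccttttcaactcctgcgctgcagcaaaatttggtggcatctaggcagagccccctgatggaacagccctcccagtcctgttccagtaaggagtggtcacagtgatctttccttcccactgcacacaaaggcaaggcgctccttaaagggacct
Start 3, chr3:65187853-65188152: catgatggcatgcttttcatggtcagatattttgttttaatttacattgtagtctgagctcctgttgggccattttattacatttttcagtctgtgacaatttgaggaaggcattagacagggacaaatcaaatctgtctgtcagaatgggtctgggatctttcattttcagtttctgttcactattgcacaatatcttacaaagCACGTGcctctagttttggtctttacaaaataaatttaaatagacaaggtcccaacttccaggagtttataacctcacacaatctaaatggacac
The E-box letters, which read the same on both strands, stood once in the second and once in the third window, and 7.15% of the 32851 promoter windows of the same length held them. The GC box GGGCGG stood 2 times in the first window, where 35.7% of all windows held it on either strand. The other motifs searched on both strands were the cyclic AMP response element, the shorter TGACG that lies within it, the AP-1 site, the CArG box, a direct repeat bound by nuclear receptors and the CCAAT box, and they stood in none of the 3 windows. These matches describe letters and were not tested for binding.

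After Kcnab1, 4 features had an adjusted p under 0.1, all at 0.0611 and all with groups that did not overlap: Dkk3, Chia1 and Amy1 with higher estimates and Ly6g6e with a lower one. They were chosen after their values were seen, and groups did not overlap for 2.48% of all features. Dkk3 encodes a secreted glycoprotein of the Dickkopf family, whose other members inhibit Wnt signalling. Its young arrays stood at 9.27, 7.95, 9.33, 8.37 and 9.30 and its middle-aged arrays at 10.42, 9.93, 10.40, 11.0001 and 10.50. All middle-aged values lay above all young ones, and the young values divided into 3 high and 2 low. The difference was 1.61 ± 0.29, a fold of 3.05, and a second probe gave 1.62 ± 0.28. The old arrays, at 8.05 to 9.38, lay almost over the range of the young ones. From 17 to 28 months Dkk3 fell by 1.63 on the log2 scale (adjusted p = 0.0169), and it was the 1 feature of 9010 (0.0111%) for which the later step differed from the earlier one, by -3.24 (adjusted p = 0.048). That call was lost when any of 8 of the 15 arrays was left out, with adjusted p-values from 0.00841 to 0.214 and differences from -3.50 to -2.96 over the 15 omissions.

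Chia1 encodes acidic mammalian chitinase, a secreted enzyme of stomach and lung that cuts chitin. Its values were 5.62, 5.61, 6.28, 5.47 and 5.28 in young and 6.93, 7.18, 7.49, 6.64 and 7.03 in middle-aged muscle, a difference of 1.40 ± 0.24 and a fold of 2.64. The lowest middle-aged array stood above the highest young one, and the old arrays ran from 6.03 to 7.47. Amy1, an alpha-amylase that splits starch and glycogen, had young values of 8.01, 8.15, 8.14, 8.16 and 7.83 and middle-aged values of 9.45, 9.11, 8.89, 8.67 and 8.96. The young arrays were tightly grouped below the middle-aged ones, and the difference was 0.96 ± 0.17, a fold of 1.95. Old arrays stood higher again on average, with a mean of 9.62 and an old against young difference of 1.57 (adjusted p = 7.53e-05). The amylase genes of the mouse are near-identical copies, so a probe for Amy1 may read others of them.

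Ly6g6e, which encodes a surface protein of the Ly6 family, was the one lower feature of this group. The young arrays stood at 5.45, 5.70, 5.50, 5.57 and 5.38 and the middle-aged arrays at 4.70, 4.84, 4.74, 5.28 and 4.81. It was detected on 5 of 5 young, 1 of 5 middle-aged and 0 of 5 old arrays, so the middle-aged level lies at the edge of what the array detects. Its young arrays alone met the detection rule, so that rule favoured a lower estimate and the p-value is descriptive. The difference was -0.65 ± 0.12, a fold of 1.57, and the old arrays (4.34 to 4.55) lay below both groups. Lonp2, a protease of peroxisomes, came next, with young values of 10.14 to 10.43 and middle-aged values of 10.73 to 10.97 that did not overlap (0.52 ± 0.10, adjusted p = 0.128).

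**Figure D2:**
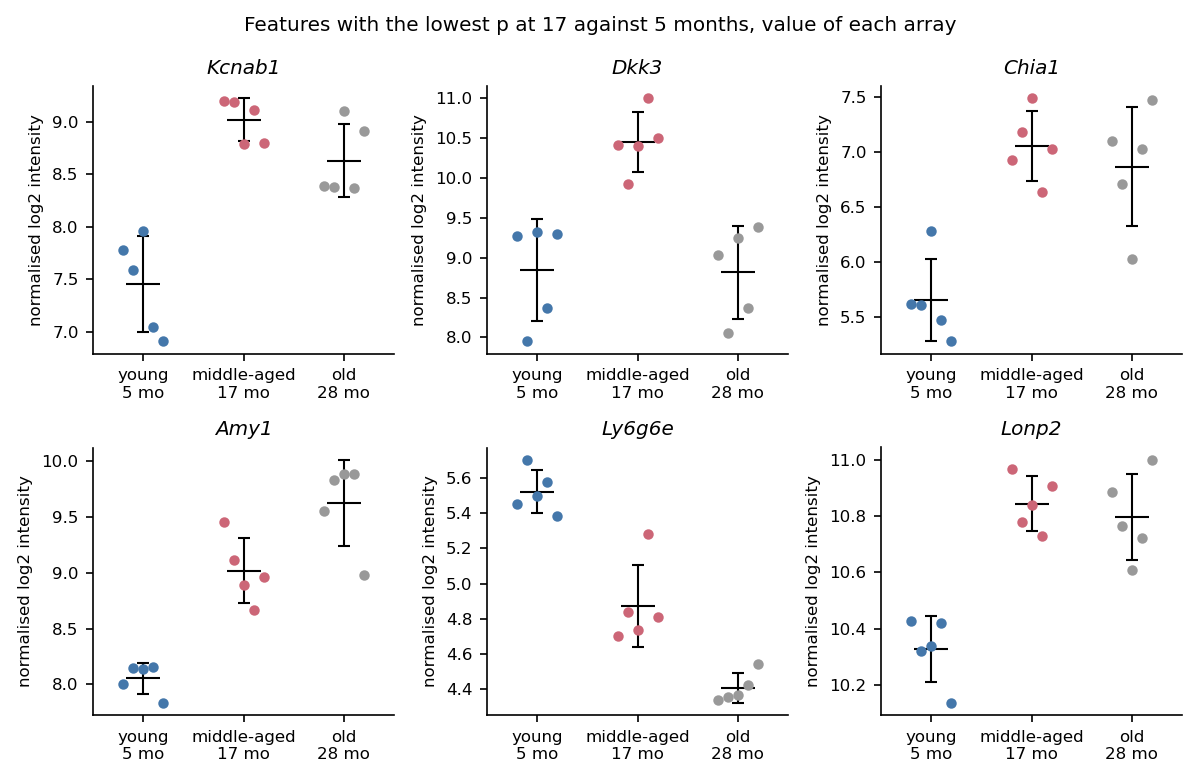
Normalised log2 intensity of the 6 genes with the lowest p, 1 point per array, with bars for the group mean ± SD (n = 5 mice per age). The young and middle-aged points do not overlap in any panel, and the old points of Dkk3 return to the young range while those of Amy1 have a higher mean, 9.62, than the middle-aged ones.

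Across all features, the young and middle-aged arrays did not overlap for 223 (2.48%), 141 higher (1.56%) and 82 lower (0.91%), and 157 of these also had an unadjusted p under 0.05. Differences of more than 2-fold were found for 14 features, 13 higher and 1 lower, and 8 of the 14 had groups that did not overlap. The 13 were Kcnab1, Dkk3, Chia1, the fat cell genes Lep, Cidec, Adipoq and Sncg, the muscle stress gene Ankrd1, the matrix-degrading enzyme Mmp3, Calm4 (near background in young muscle, with a mean of 4.82), Opn1mw, Tmem45b and an unnamed probe. That probe (ILMN_2654624) was detected on none of the 5 young and on all 5 middle-aged arrays, and against the background of the young arrays it was at least 1.89-fold higher. Since it entered through the middle-aged arrays alone, its direction was set by the detection rule and it is given without a test. The 1 lower was Cish, a feedback inhibitor of cytokine receptors, with young arrays from 8.73 to 11.92 and middle-aged arrays from 7.96 to 10.42, a wide overlap (-1.48 ± 0.63, adjusted p = 0.912).

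Fat cell genes gave the largest median of the 41 gene lists examined. Of 28 listed genes 25 were on the array and 15 were measured. None passed the adjusted test. An unadjusted p under 0.05 was found for 7 with a higher estimate and 1 with a lower one, against 2.91% and 2.1% of all features. The median difference was 0.57 on the log2 scale, beside 0.00 over all features. Groups did not overlap for 3 members in the higher direction and 1 in the lower, against 1.56% and 0.91% of all features. Lep, the gene of the satiety hormone leptin that fat cells release, stood at 6.84, 6.59, 7.21, 6.31 and 7.16 in young muscle and at 10.35, 7.14, 8.38, 9.12 and 10.67 in middle-aged muscle. Replicate 2 of the middle-aged group lay within the young range, replicates 1 and 5 lay far above it, and the mean difference was 2.31 ± 0.58, a fold of 4.96 with an adjusted p of 0.319. Adipoq, the gene of the fat cell hormone adiponectin, followed the same order of arrays, with 9.49, 7.81, 8.43, 8.98 and 10.06 in middle-aged muscle against 7.07 to 8.09 in young (1.23 ± 0.45, adjusted p = 0.792).

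Cidec, whose protein fuses lipid droplets, ran from 5.29 to 5.91 in young and was 7.91, 5.96, 6.24, 7.32 and 8.33 in middle-aged muscle, without overlap (1.49 ± 0.49, adjusted p = 0.631). Sncg, the synuclein found in fat cells and sensory neurons, gave 7.08 to 7.67 against 7.75 to 9.39 (1.10 ± 0.31, adjusted p = 0.421). Dgat2, which adds the last fatty acid of a triglyceride, behaved more evenly. Its young arrays ran from 9.64 to 10.26 and its middle-aged arrays from 10.56 to 11.13, and the difference in the 15-array model was 0.94 ± 0.23 (adjusted p = 0.277, and 0.0103 over the 10 arrays alone). Other members differed less or in the other direction. Plin4, a lipid droplet coat protein that muscle fibres also hold, gave 11.72 to 11.99 against 11.80 to 11.96 (0.06 ± 0.18), and Gpd1, which makes glycerol phosphate, had a lower estimate of -0.32 ± 0.15.

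Summed over the 15 measured members, the fat cell signal was 6058 to 7009 on the young arrays and 7027 to 10766 on the middle-aged ones, with the highest sums on middle-aged replicates 5 and 1 and the lowest on replicate 2. Retn, Fabp4, Pck1, Ucp1 and Rbp4 were detected on no array. Without middle-aged replicates 1 and 5, a choice made after the data were seen, the median of the list was 0.27 and Lep stood at 1.40 (adjusted p = 0.994). Without replicate 5 alone the list median was 0.37, and with array weights it was 0.34. In the old group Lep ran from 6.79 to 9.85 and the old against young median of the list was 0.30. The part of fat cell content in the other differences was not tested, and Kcnab1 was 1.58 without those 2 arrays (adjusted p = 0.0651 with 3 middle-aged mice left).

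**Figure D3:**
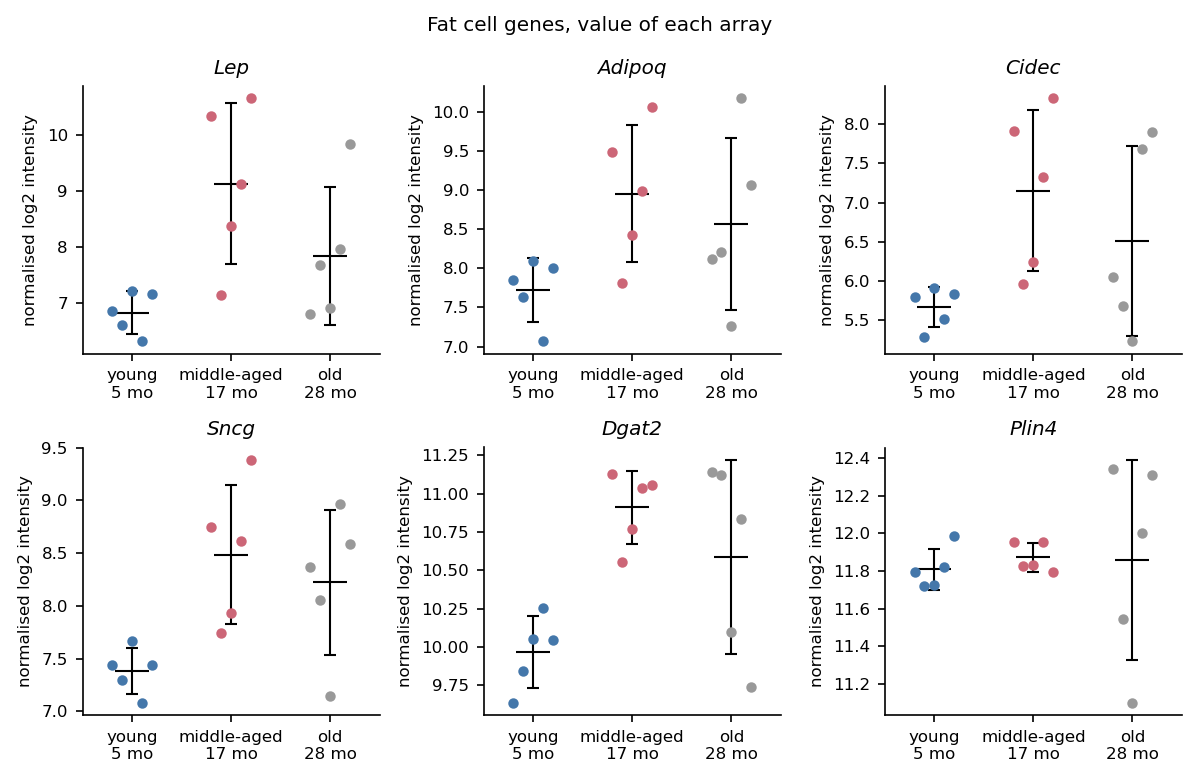
Normalised log2 intensity of 6 fat cell genes, 1 point per array from replicate 1 on the left to replicate 5 on the right of each group, with bars for the mean ± SD (n = 5 mice per age). In Lep, Adipoq, Cidec and Sncg the middle-aged replicates 1 and 5 are the 2 highest of their group and replicate 2 the lowest, while the means of Plin4 differ by 0.06.

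Genes of fatty acid uptake and oxidation, the fuel pathway of the fibres themselves, had higher estimates in 23 of 27 measured members, where 49.1% of all features did, with a median of 0.15. Middle-aged replicate 5 stood apart in this list, with a summed signal of 138992 against 98312 to 111803 on the other middle-aged arrays, and the median was 0.09 without it and 0.06 with array weights. The 2 with an unadjusted p under 0.05 were Acadvl, the very long chain acyl-CoA dehydrogenase (11.74 to 11.94 in young, 12.10 to 12.37 in middle-aged muscle, 0.31 ± 0.13, adjusted p = 0.893), and Etfdh, which passes electrons from that step to ubiquinone (0.39 ± 0.17, adjusted p = 0.897). The fatty acid transporter Slc27a1 had groups apart (0.31 ± 0.17, adjusted p = 0.9997), whereas the uncoupling protein gene Ucp3 stood at -0.50. The list of fatty acid and triglyceride synthesis was balanced, with 8 of 16 members higher, a median of 0.01 and Dgat1 as its single member with an unadjusted p under 0.05 (0.36 ± 0.15, adjusted p = 0.894). Dgat2, also an enzyme of triglyceride synthesis, was counted with the fat cell genes and not in this list (0.94 ± 0.23, adjusted p = 0.277).

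Polyamine metabolism was among the lists with the lowest medians (-0.17 over 8 measured members of 13 listed, 7 of them lower), and its array medians did not overlap between the ages. For 2 of the 8 members the groups were apart in the lower direction, as they were for 0.91% of all features. Polyamines are small cations made from ornithine that muscle needs for growth. Smox, the spermine oxidase that turns spermine back into spermidine, stood at 12.82, 13.33, 12.89, 13.03 and 12.98 in young and 11.97, 12.39, 12.18, 12.38 and 11.34 in middle-aged muscle. Every middle-aged array lay below every young one, and the difference was -0.96 ± 0.24, a fold of 1.94 with an adjusted p of 0.306. All 5 probes for Smox gave lower estimates, from -0.93 to -1.39, and the lowest adjusted p among them over all probes was 0.0865. Odc1, which makes putrescine from ornithine, overlapped only slightly, with 11.72 to 12.21 in young against 11.17 to 11.81 in middle-aged muscle (-0.55 ± 0.15, adjusted p = 0.353). Amd2, a gene for the enzyme that supplies the aminopropyl group, had groups apart, 11.32 to 12.09 against 10.53 to 11.07 (-0.86 ± 0.31, adjusted p = 0.749), and its probe may also read the near-identical Amd1. In old muscle Smox was lower still (old against young -1.83, adjusted p = 0.000398), while Odc1 stood at -0.34 (adjusted p = 0.22).

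Collagens, the fibrous proteins of the connective tissue, had lower estimates in all 12 measured members of 21 listed, with a median of -0.14. None passed the adjusted test and 1, Col1a2, had an unadjusted p under 0.05 and groups apart, against 2.1% and 0.91% of all features in the lower direction. Col1a2 stood at 6.87, 6.55, 6.94, 6.61 and 6.74 in young and 6.08, 6.33, 6.37, 5.93 and 5.93 in middle-aged muscle, without overlap (-0.61 ± 0.19, adjusted p = 0.563). Its partner in type I collagen, Col1a1, ran from 7.82 to 8.90 and from 7.02 to 8.05 (-0.67 ± 0.32, adjusted p = 0.986), and Col3a1 was -0.58 ± 0.28. The network collagens Col4a1 and Col4a2 stood at -0.28 ± 0.18 and -0.05, and the microfibril collagens Col6a1 and Col6a2 at -0.02 and -0.07. Without young replicate 3, the highest array for Col1a1, the list median was -0.08. At 28 months Col1a1 and Col1a2 had passed the test against young muscle (-1.86, adjusted p = 0.00347, and -1.35, adjusted p = 0.000741). Among 21 other matrix proteins the median was 0.05, and elastin (Eln) alone had an unadjusted p under 0.05 (6.38 to 6.75 against 5.91 to 6.34, -0.40 ± 0.16, adjusted p = 0.87). The collagen processing enzymes were balanced, 11 higher and 9 lower, with P3h1 at -0.32 and P4hb at 0.24. A second probe for P3h1 went the other way, at 0.17 ± 0.16. Fibroblast markers other than collagens had a median of 0.02, and S100a4, a calcium-binding protein of fibroblasts and immune cells, had groups apart (5.33 to 5.77 against 4.88 to 5.22, -0.47 ± 0.13, adjusted p = 0.353), and the 6 tendon genes a median of -0.04. The summed signal of the 17 fibroblast markers was 15686 to 20704 in young and 16374 to 21190 in middle-aged muscle.

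**Figure D4:**
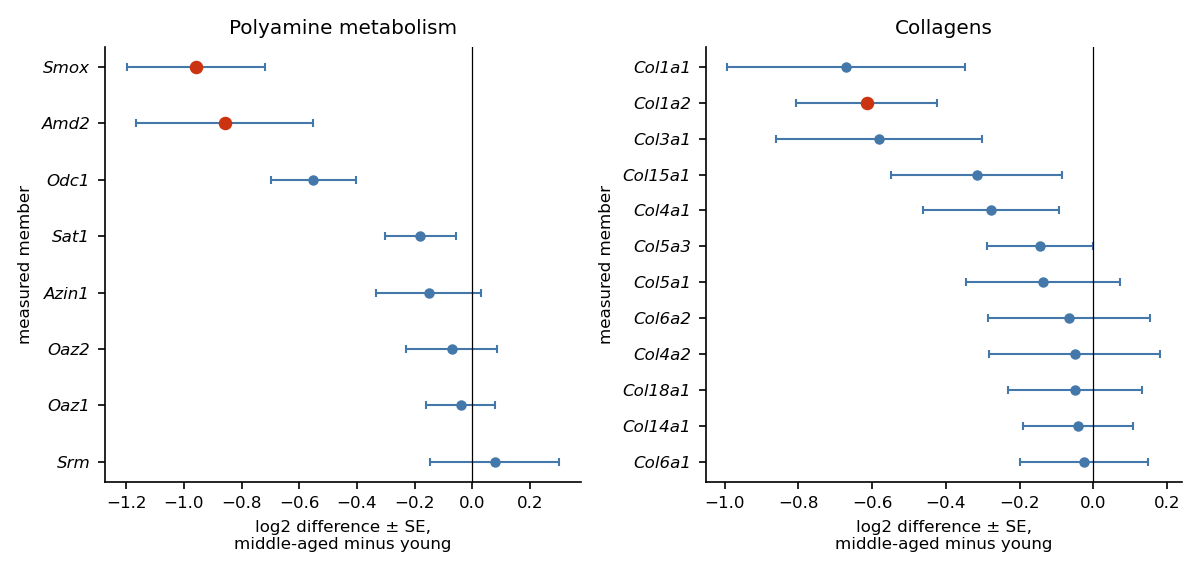
Log2 difference of middle-aged minus young with its SE (horizontal bars) for each measured member of the polyamine and collagen lists (n = 5 against 5 mice), with red points where the groups do not overlap. Smox and Amd2 among 8 polyamine genes and Col1a2 among 12 collagens have groups apart, where 0.91% of all features have them apart in the lower direction, and all 12 collagen estimates lie below 0.

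Genes that respond to the loss of nerve contact had a median close to that of all features. Of 19 measured members 11 were higher and 8 lower, with a median of 0.03, while the same list had an old against young median of 0.99. Ankrd1, a stretch and stress responsive ankyrin repeat protein of the sarcomere, had the lowest p of them, with 8.05, 7.53, 7.64, 7.77 and 7.89 in young and 9.003, 8.65, 9.31, 8.77 and 9.61 in middle-aged muscle. The groups were apart by more than the range of the young arrays (1.29 ± 0.35 in the 15-array model, adjusted p = 0.353, and 0.0103 over the 10 arrays alone), and a second probe gave 1.11 ± 0.40. Old arrays ranged from 9.17 to 12.07 (old against young 2.78, adjusted p = 0.00022). Nrep, a neuronal regeneration protein that muscle also makes, had groups apart in the lower direction (12.42 to 12.70 against 11.72 to 12.26, -0.50 ± 0.23, adjusted p = 0.979) and old arrays of 9.42 to 11.11. Sln, whose peptide uncouples the calcium pump, stood at 6.35 to 9.29 in young and 7.04 to 7.82 in middle-aged muscle (-0.22 ± 0.47), against an old mean of 11.8. The growth arrest gene Gadd45a stood at -0.21 ± 0.17 and the acetylcholine receptor gene Chrna1 at 0.03.

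Slow fibre genes had higher estimates in all 11 measured members, with a median of 0.30 (0.19 without middle-aged replicate 3, 0.50 without young replicate 4), and none had an unadjusted p under 0.05. Myl2, the slow regulatory light chain, ran from 12.84 to 13.85 in young and 13.61 to 14.08 in middle-aged muscle (0.43 ± 0.29), and Casq2, the calsequestrin of slow and cardiac muscle, had groups apart (7.14 to 7.57 against 7.66 to 8.20, 0.45 ± 0.31, adjusted p = 0.9997). The 15 fast fibre genes had a median of -0.03. The summed slow fibre signal overlapped between the ages and was 36107 to 64786 in young and 49570 to 71960 in middle-aged muscle.

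The 71 respiratory complex genes of the nucleus had a median of -0.05, with 28 higher and 43 lower, and 1 of them, Atp5e, a subunit of ATP synthase, had an unadjusted p under 0.05 (-0.54 ± 0.23, adjusted p = 0.902). This list was nearly constant on 9 arrays, whose medians lay from 0.01 to 0.06 around the overall mean, and stood at -0.35 on middle-aged replicate 5. The 52 cytosolic ribosomal proteins behaved alike, with a median of -0.06 and -0.43 on that array, and without it the medians were 0.02 and 0.05. The TCA cycle enzymes Fh1 (0.25 ± 0.11) and Ogdh (0.29 ± 0.13) had an unadjusted p under 0.05 with higher estimates, and 14 of 19 members of that list were higher, with a median of 0.03 that also changed sign without middle-aged replicate 5 (-0.007), whose summed signal of 86750 lay above the 64328 to 71045 of the other middle-aged arrays. Among 20 glycolysis and glycogen genes (median -0.05) 14 were lower, and the lactate exporter Slc16a3 had the lowest p (-0.60 ± 0.28, adjusted p = 0.979). Proteasome subunits stood at a median of 0.01.

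Heat shock proteins and chaperones had 4 of 22 members with an unadjusted p under 0.05 and a higher estimate, against 2.91% of all features. They were the small heat shock protein Hspb7 (9.48 to 10.26 in young, 10.24 to 11.31 in middle-aged muscle, 0.78 ± 0.29, adjusted p = 0.81), Cryab (0.49 ± 0.19, adjusted p = 0.845), Hspb6, whose groups were apart (0.31 ± 0.13, adjusted p = 0.882), and the co-chaperone Bag3 (0.22 ± 0.10, adjusted p = 0.952). Other small heat shock proteins of the list stood at 0.12 (Hspb1), 0.08 (Hspb8), 0.05 (Hspb2) and -0.05 (Hspb3). The list as a whole had 10 higher and 12 lower and a median of -0.03, with the inducible Hspa1a at -0.54. Genes of endoplasmic reticulum stress had a median of 0.02 over 16 members, and Chac1, an enzyme that breaks down glutathione, had the lowest p among them (11.38 to 13.08 against 10.27 to 12.66, -0.95 ± 0.42, adjusted p = 0.941). Among 23 antioxidant genes, whose median was -0.05, 3 had groups apart in the higher direction, against 1.56% of all features. The glutathione transferases Gstm2 (0.34 ± 0.13, adjusted p = 0.814) and Gsta3 (0.56 ± 0.22, adjusted p = 0.855) were among them. For Gstm2 the margin was very small, 11.204 to 11.6284 against 11.6291 to 12.0789. Of its other probes 1 had groups apart and 1 overlapped (9.1911 to 9.6533 against 9.6515 to 10.026). Gclm, the regulatory subunit of glutathione synthesis, had groups apart in the lower direction by a similarly small margin (7.9609 to 8.4659 against 7.6245 to 7.9594, -0.44 ± 0.16, adjusted p = 0.818).

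No immune gene passed the adjusted test. Macrophage genes were higher in 14 of 17 measured members, with a median of 0.13 (0.09 without young replicate 2, 0.25 without young replicate 4, 0.22 without middle-aged replicate 4), and 1 of them, the antibody receptor Fcgr3, had an unadjusted p under 0.05 (0.41 ± 0.18, adjusted p = 0.922), while the old against young median of the list was 0.75. Their summed signal was 4404 to 6569 in young and 5407 to 8150 in middle-aged muscle, and Fcgr1 was detected on no array. Of the complement genes C4b had groups apart (6.72 to 7.05 against 7.27 to 7.97, 0.58 ± 0.19, adjusted p = 0.634), and the list median was 0.23 over 9 members, or 0.15 without middle-aged replicate 5. Mast cell genes were higher in all 4 measured members, with a median of 0.48, led by the proteases Mcpt4 (0.61 ± 0.26, adjusted p = 0.912) and Cpa3 (0.55 ± 0.24, adjusted p = 0.941). Their summed signal was 155 to 218 in young and 185 to 348 in middle-aged muscle with the highest value on replicate 5, and the defining receptor genes Ms4a2 and Fcer1a were detected on no array. Among 18 cytokines and chemokines (median 0.13, or 0.06 to 0.20 with 1 array left out) Il12a had the lowest p, with a lower estimate (7.08 to 7.65 against 6.65 to 7.15, -0.52 ± 0.16, adjusted p = 0.563), and the lymphoid chemokine Ccl21a (0.47 ± 0.22) and the muscle cytokine Il15 (0.48 ± 0.22) higher in the estimates (adjusted p = 0.979 for both). Antigen presentation and interferon response lists had medians of 0.08 and 0.01. Serpina3n, an acute phase protease inhibitor, was chosen after its values were seen (5.54 to 6.16 against 6.44 to 7.38, 0.90 ± 0.24, adjusted p = 0.353).

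Immediate early genes, which muscle switches on within minutes of contraction or handling, had lower estimates in 21 of 30 measured members, with a median of -0.09 that turned to 0.04 without young replicate 2. Egr1 and Fos varied more between mice of an age than between the ages. Egr1 stood at 9.62, 12.82, 9.26, 9.62 and 8.51 in young and 11.16, 10.57, 8.92, 8.30 and 9.70 in middle-aged muscle, so 1 young array was the highest of all and the groups overlapped widely (-0.24 ± 0.70, adjusted p = 0.9997). Fos gave -0.10 ± 0.69. Lower p-values came from Socs3, a cytokine feedback inhibitor (6.48 to 7.81 against 6.08 to 6.71, -0.72 ± 0.22, adjusted p = 0.563), and from Arc, detected on 4 of 5 young and 1 of 5 middle-aged arrays (-0.44 ± 0.15, adjusted p = 0.631). Arc passed the detection rule mainly through its young arrays, which favours a lower estimate. Without young replicate 2 the estimates of Egr1 and Fos were 0.48 and 0.46, above 0.

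Glucocorticoid responsive genes had the lowest list median, -0.27, with 14 of 15 measured members lower and their array medians overlapping between the ages (-0.18 without young replicate 4). Glul, the glutamine synthetase, had the lowest p, with a signal near background (4.855 to 5.76 against 4.61 to 5.03, -0.54 ± 0.19, adjusted p = 0.714). Fkbp5, a chaperone of the receptor, followed (7.41 to 8.45 against 7.20 to 7.80, -0.51 ± 0.26, adjusted p = 0.987), and the stress gene Ddit4 stood at -0.86 ± 0.56. The ubiquitin ligases of muscle atrophy that belong to this response, Trim63 (-0.44 ± 0.23) and Fbxo32 (-0.27), were lower in the estimates as well, while the 19 atrophy and autophagy genes together had a median of -0.005. Of 18 circadian clock genes (median -0.07) Cry2, a repressor of the clock, had an unadjusted p under 0.05 (0.48 ± 0.19, adjusted p = 0.859), while Dbp (-0.08), Per1 (-0.20) and Arntl (-0.06) were close to 0. The insulin, IGF, Akt and mTOR list had a median of -0.02, with the kinase subunit Pik3cb at 0.37 ± 0.16 and Igf1 at -0.27 ± 0.15.

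**Figure D5:**
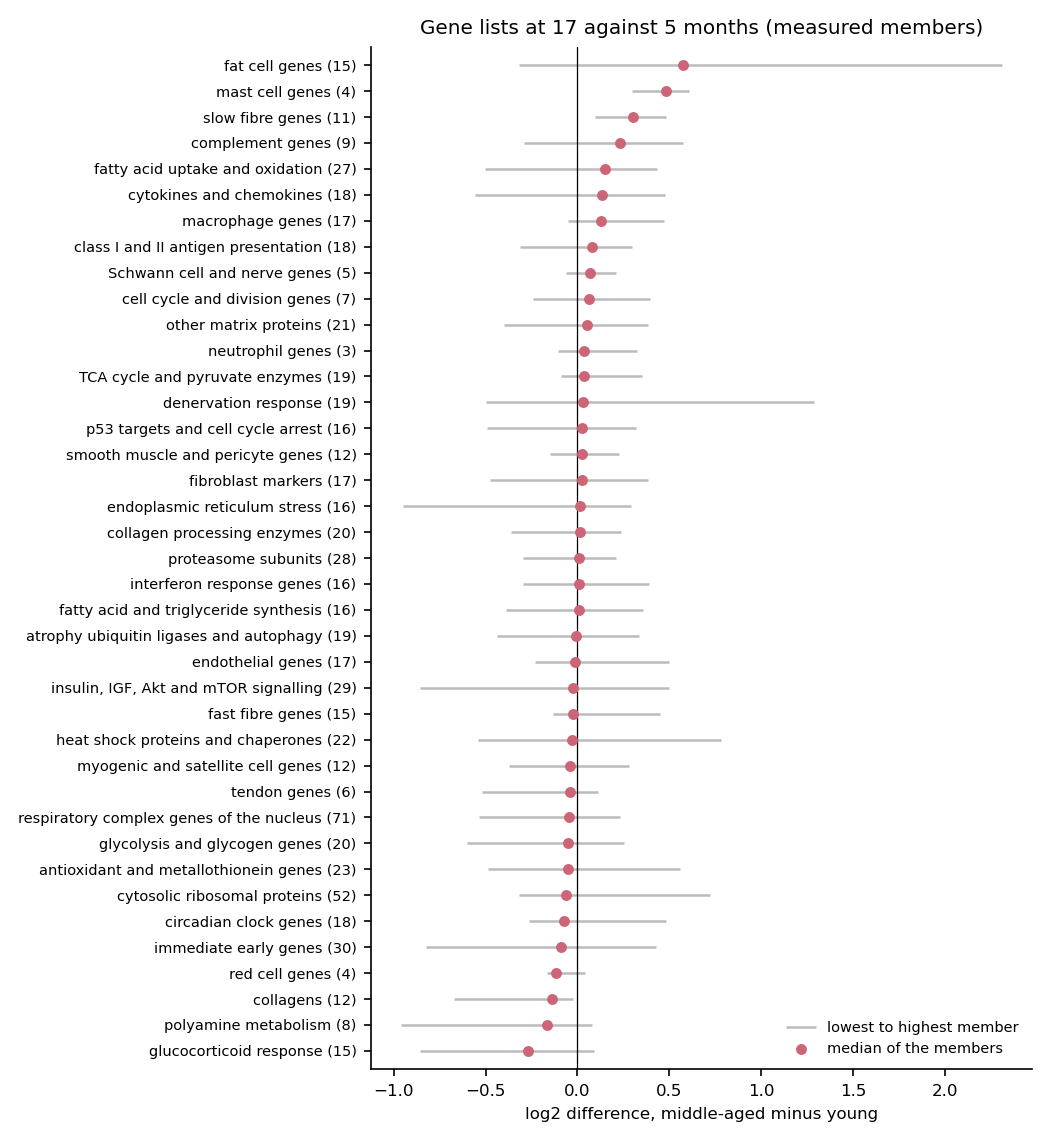
Median log2 difference of middle-aged minus young (points) and the range from the lowest to the highest member (lines) for the 39 gene lists with at least 3 measured members, the number of members in brackets. Fat cell genes have the highest median, 0.57, and glucocorticoid responsive genes the lowest, -0.27, beside 0.00 for all features.

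No gene of the other cell types passed the adjusted test. The 17 endothelial genes had a median of -0.01 and a summed signal of 12876 to 14463 in young and 12088 to 13591 in middle-aged muscle, and the 12 smooth muscle and pericyte genes a median of 0.02. Red cell genes had a median of -0.12 and varied several-fold within each age (5740 to 20356 in young, 5243 to 16440 in middle-aged muscle). Of 11 neutrophil genes on the array 7 were detected nowhere, among them Mpo and S100a9, and the 3 measured had a median of 0.04. Of 12 T and NK cell genes on the array 9 were detected nowhere, including Cd3e, Cd4 and Cd8a, and of 7 B and plasma cell genes 5, including Cd79a and Ms4a1. The 2 T and NK cell genes measured, Cd28 and Prf1, stood at -0.18 and -0.12, and the 1 plasma cell gene, Mzb1, at -0.02. The 5 measured Schwann cell and nerve genes had a median of 0.07, the 12 myogenic genes -0.04, the 7 cell cycle genes 0.06 and the 16 p53 targets 0.03.

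The features called with the 10 arrays alone all had groups apart, and several enzymes and other genes among them are described here. The differences and SE in the following sentences are from the fit of the 10 arrays, and in the 15-array model the SE was 0.17 for Gpt2, 0.22 for Jak2, 0.18 for Prkcz, 0.27 for Mib1, 0.17 for Mustn1 and 0.15 for Pkp2. Gpt2, the mitochondrial alanine aminotransferase, stood at 11.47 to 11.93 in young and 10.96 to 11.16 in middle-aged muscle (-0.66 ± 0.10, adjusted p = 0.0192 over the 10 arrays and 0.346 over the 15). Jak2, the kinase of cytokine and growth hormone receptors, stood at 10.01 to 10.34 and 9.36 to 9.78 (-0.63 ± 0.10, adjusted p = 0.0193 and 0.71). Prkcz, an atypical protein kinase C, gave 5.10 to 5.65 and 6.06 to 6.25 (0.74 ± 0.12, adjusted p = 0.0234 and 0.277), and Mib1, a ubiquitin ligase of Notch ligands, 6.92 to 7.68 and 7.96 to 8.54 (0.91 ± 0.15, adjusted p = 0.0234 and 0.535). Mustn1, a small nuclear protein of muscle and bone, gave 10.02 to 10.21 and 10.46 to 11.18 (0.68 ± 0.13, adjusted p = 0.0489 and 0.328), and Pkp2, a plakophilin of cell junctions, 6.62 to 6.88 and 7.23 to 7.48 (0.56 ± 0.10, adjusted p = 0.0496 and 0.406). For Gpt2 and Jak2 the old arrays were more scattered than either younger group, with old replicate 3 at 11.79 and 10.54, and for Prkcz 4 of the 5 old arrays (6.79 to 7.05) lay above the middle-aged range.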

How the data were processed

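The authors extracted total RNA with Trizol, hybridised labelled RNA to Illumina MouseRef-8 bead arrays and deposited raw intensity values of every probe, exported from GenomeStudio 2011.1 (submitters' processing notes) without normalisation. The authors deposited a detection p-value beside each intensity, and a score per probe, a Z score of the natural log intensity, which was recomputed within 0.000924. The intensities of 1 young and 1 middle-aged array carry 2 decimals and the others 1.

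Of 25697 probes, 23978 had 1 gene symbol, 0 several and 1719 none. Intensities of all 15 arrays were background-corrected and quantile normalised by the neqc function (offset 16, log2) of limma 3.58.1 under R 4.3.3. A gene with several member probes (2140 genes) was represented by the one with the highest mean. One mean per age was fitted with lmFit and eBayes (intensity trend), with Benjamini-Hochberg adjustment over 9010 features and calls at an adjusted p under 0.05. Adjusted p-values are two-sided and from limma. A fold against a group that detected no probe of a gene is a lower bound against the background there.

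Members, the 41 gene lists and the rule for named genes were chosen with earlier results of these data known. Named genes were the 12 largest rises and falls among called features with groups apart, or all where fewer, up to 4 called members or else the 2 with the lowest p of each list, and Lep, Adipoq, Egr1, Fos, Col1a1 and Sln. Others were chosen after their values were seen. A promoter rule for lists with at least 4 calls named no gene, so those of Kcnab1, from RefSeq, were chosen later. On simulated log2 values of the 9010 features, noise was independent and 67, 67 and 66 changes of 0.5, 1 and 2 were planted. This comparison recovered 28.4% of changes of 0.5, 82.1% of 1 and 100% of 2, with 11 false calls. With that many true changes the adjustment is milder than in the data, where 1 feature was called. The shares therefore do not give the power of the test in these data. A set of 32 alternatives was tried.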

Additional observations from a re-analysis of the deposited data

Results flagged for a closer look

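For each described gene, the highest or lowest array of a group of 5 was set apart where its gap to the nearest other array exceeded 0.71 of the group's range. Of 246 groups of 123 genes 9 did so (3.66%), and chance alone gives about 1 in 20. Gap shares follow each array. Middle-aged replicate 5 was the lowest for Mylk2 (0.809), at 4.66 against 5.46 to 5.65, and the highest for Casq2 (0.768), at 8.20 against 7.66 to 7.78, and for Hmgb2 (0.717), at 6.35 against 5.86 to 5.996. Middle-aged replicate 4 was the highest for Mylk (0.759), at 8.56 against 7.54 to 7.79, and for Ly6g6e (0.767), at 5.28 against 4.70 to 4.84, and it was the single middle-aged array that detected Ly6g6e. Middle-aged replicate 2 was the highest for Ccl21a (0.76), at 7.995 against 7.43 to 7.57. Among young arrays, replicate 3 was the highest for Nrep (0.941), at 12.70 against 12.42 to 12.43, replicate 2 the highest for Egr1 (0.742), at 12.82 against 8.51 to 9.62, and replicate 1 the lowest for Acadvl (0.789), at 11.74 against 11.90 to 11.94.

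For Dkk3 the step from 17 to 28 months differed from the step from 5 to 17 months by -3.241 on the log2 scale (limma, adjusted p = 0.048).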

How the results depend on the processing

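The main model called 1 feature for the early step and 1 for the difference between the steps. For the early step the count was 2 with every probe its own feature, 19 with the young and middle-aged arrays alone, 2 with the replicate block, 85 with array weights, 2 without middle-aged replicate 5 and old replicate 3 together, 0 without the 2 arrays whose intensities carry 2 decimals (317 unadjusted), and 0 without middle-aged replicates 1 and 5 together, chosen after seeing the data (340 unadjusted). Leaving out 1 array at a time gave 1 to 5 calls, with 4 without middle-aged replicate 4, 5 without old replicate 5 and 2 without young replicate 3 or old replicate 3. The unadjusted count was 451 in the main model, 864 with the young and middle-aged arrays alone and 1516 with array weights. Where every probe was its own feature, the 2 calls were the 2 probes for Kcnab1. Kcnab1 was called under 29 of the 32 alternatives. Its adjusted p was 0.107 without the arrays with 2 decimals, 0.0651 without middle-aged replicates 1 and 5, and 0.116 by the methods' t-test on Z scores, and its log2 estimates ran from 1.28 to 1.69. The methods' t-test gave 762 features at the unadjusted threshold and 1 after Benjamini-Hochberg (Olfr206, lower), and the methods' full rule with a Z ratio over 1.5 gave 438.

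For the difference between the steps the count was 2 with median scaling, recomputed or deposited Z scores, no detection filter, detection on at least 5 of 15 arrays, every probe its own feature or the replicate block, 22 with array weights, and 0 without the arrays with 2 decimals, without middle-aged replicate 5 and old replicate 3, or without middle-aged replicates 1 and 5. Leaving out 1 array at a time gave 0 to 8 calls, with 8 without old replicate 5, 3 without young replicate 3, 2 without young replicate 5 or old replicate 2 or 3, and 0 without young replicate 1 or 4, old replicate 1 or 4, or middle-aged replicate 1, 3, 4 or 5. With every probe its own feature, the 2 calls were the 2 probes for Dkk3. The difference between the steps cannot be had from young and middle-aged arrays alone. The causes were not tested.

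Same-numbered arrays of both ages had correlations of deviations of 0.415, 0.102, -0.05, 0.147 and 0.315, against means of -0.12 to 0.02 with other numbers. For 3 of 5 young arrays the best match was the middle-aged array of the same number. Pairing was taken as shown only where the labels give it or every such correlation is over 0.1, which replicate 3 missed, so the main model has no block and a weaker sharing between same-numbered arrays was not excluded. The replicate block added Dkk3 to Kcnab1 for the early step. The list median of fat cell genes ran from 0.27 to 0.66 on the log2 scale, lowest without middle-aged replicates 1 and 5 together, and 0.28 without background correction. Of the 41 list medians 14 kept their sign under every alternative (among them fat cell, mast cell, slow fibre, fatty acid oxidation, collagen, polyamine and glucocorticoid genes) and 27 did not. For the fast fibre, endothelial, heat shock, atrophy and neutrophil lists another scaling alone was enough. Signal near background limits the dimmest genes, whose folds are understated.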
